A study of Homo sapiens with 18 samples.

Results

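The regions described here are the xxChIP H1.2-only peaks, the stretches of DNA that were called as enriched in linker histone H1.2 by xxChIP-seq and by no other of the 4 peak lists of the study. A peak was taken if it lay on chromosomes 1 to 22 or X, was shorter than 20000 bp and had no base in common with a peak of xxChIP H1.5, xChIP H1.2 or xChIP H1.5. This held for 27491 of the 140077 xxChIP H1.2 peaks of that length on these chromosomes (19.6%, 95% Wilson interval 19.4% to 19.8%), from a list of 143193 peaks and 564548 peaks in the 4 lists together. The remaining 112586 peaks, called the other xxChIP H1.2 peaks below, comprised 33021 peaks shared with xxChIP H1.5 alone (23.6%) and 79565 peaks with a base in common with an xChIP list (56.8%). The absence of overlap, the distances to other lists and the length limit were what chose these regions, so they are given only as a description.

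All samples came from undifferentiated HL-60/S4 cells, an established human myeloid leukemia line growing in suspension, with the same first formaldehyde fixation in every group, and no agent or genotype differed between groups. In xChIP the antibody met chromatin that had already been sonicated, whereas in xxChIP permeabilized fixed cells were incubated with anti-H1.2 or anti-H1.5, fixed once more and only then sonicated, with longer sonication. Both antibodies were used in both protocols with 3 replicates each, giving 12 immunoprecipitated samples, and 6 Input samples are not used here. The authors called peaks with MUSIC on uniquely mappable reads aligned to hg19 and merged the 3 replicates, so a list gives only the start and end of each peak, the depth is unknown and no spread between replicates exists. Comparisons below therefore describe 1 merged list against another, without a test, and intervals cover counting error only.

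Linker histone H1 binds where DNA enters and leaves a nucleosome and helps chromatin to fold more tightly. Human cells carry several H1 variants that differ mainly in their tails, among them H1.2 and H1.5, and an antibody can report a variant only where its epitope is reachable. Because xxChIP antibodies must bind inside fixed nuclei, an xxChIP peak is read as a place where the epitope was both present and reachable in situ.

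The centers of a few of these regions are shown first, because they include the longest, the most remote and the GC-richest of the fully sequenced ones (those without an unknown base). Each line holds the central 300 bases of 1 peak on the + strand of GRCh37 (the sequence of hg19), with CpG dinucleotides in capitals.
Longest peak, in PAPPA2, center, chr1:176690655-176690954: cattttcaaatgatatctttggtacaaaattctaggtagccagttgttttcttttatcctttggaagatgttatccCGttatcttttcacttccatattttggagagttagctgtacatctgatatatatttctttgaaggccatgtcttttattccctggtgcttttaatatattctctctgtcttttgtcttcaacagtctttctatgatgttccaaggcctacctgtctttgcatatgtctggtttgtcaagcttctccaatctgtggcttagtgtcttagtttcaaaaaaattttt
Most remote peak, in SOX6, center, chr11:16019937-16020236: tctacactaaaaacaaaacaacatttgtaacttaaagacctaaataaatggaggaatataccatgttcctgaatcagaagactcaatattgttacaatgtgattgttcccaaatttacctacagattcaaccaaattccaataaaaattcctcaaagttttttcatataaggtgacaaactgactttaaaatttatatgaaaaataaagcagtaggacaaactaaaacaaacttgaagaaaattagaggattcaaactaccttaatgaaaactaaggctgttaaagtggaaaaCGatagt
Remote peak in MEGF10, center, chr5:126687222-126687521: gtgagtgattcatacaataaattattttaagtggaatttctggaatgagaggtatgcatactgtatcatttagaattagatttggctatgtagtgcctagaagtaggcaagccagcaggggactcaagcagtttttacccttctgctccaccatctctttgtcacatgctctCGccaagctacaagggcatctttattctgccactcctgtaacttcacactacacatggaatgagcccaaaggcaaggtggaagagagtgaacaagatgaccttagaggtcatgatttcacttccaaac
GC-richest fully sequenced peak, toward SOX1, center, chr13:112690873-112691172: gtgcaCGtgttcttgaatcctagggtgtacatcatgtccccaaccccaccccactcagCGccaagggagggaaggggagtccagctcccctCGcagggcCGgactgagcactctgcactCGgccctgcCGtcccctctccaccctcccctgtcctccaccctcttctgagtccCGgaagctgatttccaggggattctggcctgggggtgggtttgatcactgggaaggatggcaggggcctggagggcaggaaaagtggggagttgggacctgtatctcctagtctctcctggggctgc
The 19434-bp peak in PAPPA2, which encodes a protease of insulin-like growth factor binding proteins, had a GC content of 34.8% and overlapped an exon. The peak in an intron of SOX6, a transcription factor gene, lay 44082 bp from the nearest peak of any other list, the largest distance of all. The peak in an intron of MEGF10, a receptor for engulfment of dying cells, ranked after it at 35672 bp, behind an intergenic peak at 38838 bp. The GC-richest region without an unknown base lay 30440 bp from the transcription start site (TSS) of SOX1, with a GC content of 66.4% and 61.2 CpG per kb, and 1 member with an unknown base reached 68.8%.

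The other extremes of the set lay in similar places. The second longest peak, 19114 bp at chr16:32696597-32715710, was intergenic and 13803 bp from another list. The fourth, of 18929 bp, lay between protein-coding genes at 202177 bp from the TSS of KCNMB2, and the fifth, of 18880 bp, lay in an intron of RBFOX1. The next in GC content among members without an unknown base touched exons, at BGN and HAUS7 on chromosome X with 66.2% and at MAP3K11 on chromosome 11 with 65.2%. The lowest GC content, 24.8%, was found at chr8:23745561-23746618, where 95.5% of the bases were high-copy, and the next lowest, 25.1%, at chr5:34335825-34337629, where 24.7% were.

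The xxChIP H1.2-only peaks were of modest length. They covered 66.1 Mb with a median of 1897 bp, against 2225 bp for the other xxChIP H1.2 peaks and 1780 bp for the 23883 peaks found only in xxChIP H1.5 by the same rule. The middle 50% of the set ran from 1380 to 2843 bp, and 1 member was under 1000 bp. The H1.2-only share of peaks was 21.8% at 1000 to 1500 bp, 23.5% at 1500 to 2000 bp and 25.8% at 2000 to 3000 bp, and from there it went down to 18.4%, 9.36% and 2.04% at 10000 to 20000 bp. A longer peak has more bases with which to meet another list, and length is tied to the rule in this way.

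The nearest peak of another list was a median of 2999 bp away. It lay beyond 1000 bp for 86.1% of the members (85.7% to 86.5%), beyond 5000 bp for 25.0% and beyond 20000 bp for 73 of them. The nearest neighbor was about as often an xChIP H1.2 peak (35.5%) as an xChIP H1.5 peak (31.9%) or an xxChIP H1.5 peak (32.6%). At the threshold itself, 52 members lay within 10 bp of another list and 6 of these touched it, while 66 peaks were left out for sharing 1 to 10 bp. Peaks left out were usually covered almost wholly, with a median of 97.1% of their length inside other lists and 2520 covered to under 10%. At the length limit, the longest member had 19434 bp and the shortest non-overlapping peak left out had 20214 bp, at chr18:31286512-31306725, 1 of 6 such peaks.

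The ends of the peaks, more than their centers, carried repeated sequence. A base was called high-copy if it lay in a 16-base word found at least 100 times in the assembly on either strand, which includes the abundant interspersed repeats such as Alu and LINE elements. In the 27490 members of at least 1000 bp, the high-copy share was 25.5% at 400 to 500 bp inside an end, rose to 59.1% in the 50-bp step centered 125 bp inside it, and fell to 13.5% at 300 to 400 bp outside. GC content moved with it, from 38.9% in the step centered 475 bp inside to 45.0% at 125 bp inside and 39.5% at 1500 to 2000 bp outside. Of these members, 21996 (80.0%, 79.5% to 80.5%) were at least 50% high-copy in the outermost 200 bp of at least 1 end, and 9631 (35.0%) at both. The same was true of the central 200 bp in 5277 (19.2%, 18.7% to 19.7%).

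**Figure D1:**
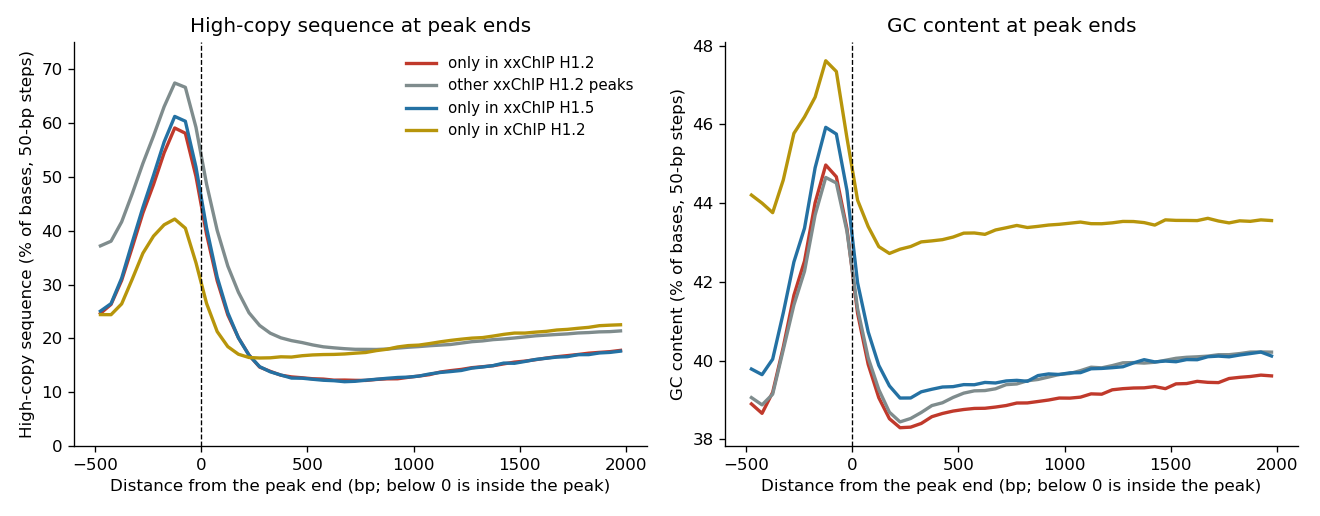
High-copy sequence (left) and GC content (right), in percent of bases, in 50-bp steps from 500 bp inside to 2000 bp outside the peak end (dashed line), averaged over both ends of peaks of at least 1000 bp in 4 sets. In the xxChIP H1.2-only peaks (red) high-copy sequence reaches 59.1% at 125 bp inside the end, and the curves of the other sets peak at the same step.

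The mean high-copy share was 55.5% in the outermost 200 bp, 24.5% in the central 200 bp and 13.1% in a 200-bp window that began 300 bp outside the peak. The ends were above the centers on 23 of 23 chromosomes, by 31.3 percentage points on average (SD 2.12 over chromosomes, from 23.9 on X to 34.1 on chromosome 7). The pattern held at every length, since members of 1000 to 1500 bp had 59.5% at the ends and 28.5% at the center, and those of 10000 to 20000 bp had 46.9% and 22.4%. It was not particular to this set. Ends and centers had 64.1% and 39.3% in the other xxChIP H1.2 peaks, 57.5% and 24.4% in the xxChIP H1.5-only peaks, and 39.5% and 25.4% in 39484 peaks found only in xChIP H1.2. Unique mapping of reads and peak calling act on such sequence, and their part in where a peak ends was not tested.

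Over their whole length the xxChIP H1.2-only peaks were less repetitive than the other xxChIP H1.2 peaks and more so than the genome. The high-copy share of bases was 31.1% in the members, 38.6% in the other peaks, 32.2% in the xxChIP H1.5-only peaks and 27.3% in known sequence. It was lower than in the other peaks on 23 of 23 chromosomes, by 7.54 percentage points on average (SD 2.35), and higher than in the chromosome as a whole on 23 of 23. In the central 300 bp the gap widened to 24.6% against 39.3%. When the other peaks were weighted to the same lengths, they had 43.4%, and the members were again lower on every chromosome, by 12.2 percentage points on average (SD 2.22). Peaks shared with an xChIP list were the most repetitive, at 46.8% with the same weights, and those shared with xxChIP H1.5 alone stood at 35.6%. Single members ranged widely, from a 5th percentile of 10.8% to a 95th of 67.6%, and 15 had no high-copy base.

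GC content was 39.9% in the members, 39.1% in the other xxChIP H1.2 peaks and 40.9% in the genome, and this order with the other peaks turned with length. The members were higher than the other peaks on 23 of 23 chromosomes, by 0.86 percentage points on average (SD 0.38). With the other peaks weighted to the same lengths, however, they were 0.26 percentage points lower (39.9% against 40.1%), and lower on 17 of 23 chromosomes. The parts of the other peaks lay on either side of the members. With the same weights, peaks shared with xxChIP H1.5 alone had 38.9% and those sharing bases with an xChIP list 40.7%. Members of 1500 to 2000 bp had 40.9% against 41.5%, and those of 5000 to 10000 bp had 38.4% against 38.2%. Against the xxChIP H1.5-only peaks the difference was steadier. Members were lower on 23 of 23 chromosomes, by 1.14 percentage points on average (SD 0.40), with 39.9% against 40.9% at matched lengths. CpG dinucleotides numbered 8.57 per kb in the members, 8.97 in the other peaks at matched lengths and 9.07 in the xxChIP H1.5-only peaks. Among the other peaks they numbered 7.64 in those shared with xxChIP H1.5 alone and 9.57 in those sharing bases with an xChIP list.

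**Figure D2:**
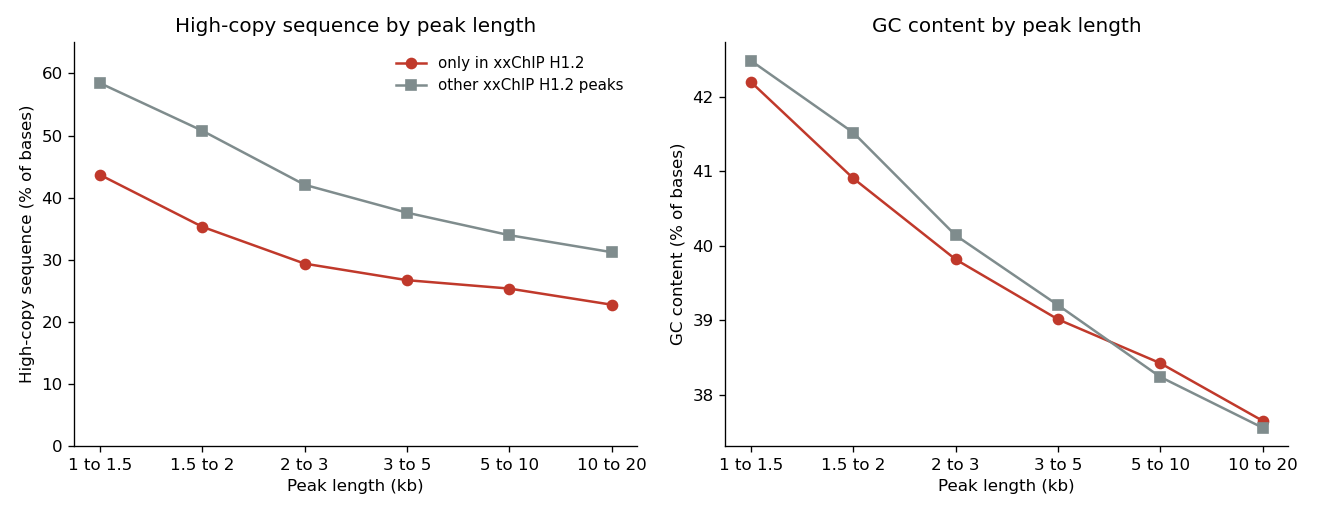
High-copy sequence (left) and GC content (right; the axis does not start at 0), in percent of bases, in 6 classes of peak length for the xxChIP H1.2-only peaks (red circles) and the other xxChIP H1.2 peaks (grey squares). High-copy sequence is lower in the H1.2-only peaks in every class, from 43.7% against 58.4% in the shortest to 22.8% against 31.2% in the longest, while the GC curves cross between 3 to 5 kb and 5 to 10 kb.

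Short sequence motifs in the central 300 bp differed from the genome in some cases and were near it in others. A TATAAA motif, read on both strands, lay in 32.7% of member centers (32.2% to 33.3%), in 31.8% of the other peaks and in 29.6% of 9451953 genome tiles of the same length. It lay in 35.4% of the peaks shared with xxChIP H1.5 alone and in 30.9% of the xxChIP H1.5-only peaks. GGGCGG, the core of GC boxes, lay in 2.51% of member centers (2.34% to 2.71%), against 4.18% of tiles and 6.33% of xChIP H1.2-only centers. A low share was not particular to the members. The other xxChIP H1.2 peaks had 2.84%, those of them shared with xxChIP H1.5 alone 1.90%, and the xxChIP H1.5-only peaks 3.06%. TTTTTTT was held by 28.2% of member centers and 28.2% of tiles, against 33.0% of the other peaks. GAGGAA, the core bound by ETS factors such as PU.1, was held by 22.8% and 22.3%. A match describes the letters alone.

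Among genes, the members lay in protein-coding gene bodies about as often as the genome does. Genes are those of GENCODE v44 lifted to GRCh37, of which 20098 are protein-coding. Their bodies held 45.97% of member bases and 45.8% of known sequence, against 39.0% of the bases of the other xxChIP H1.2 peaks and 44.2% of the xxChIP H1.5-only peaks. The member share was above that of the other peaks on 21 of 23 chromosomes, and with matched lengths on 19 of 23, with 45.97% against 42.15%. Chromosome 21 went furthest the other way, where members were 5.88 percentage points lower at matched lengths. Counted by peak, 47.5% of members (46.9% to 48.1%) and 43.4% of the other peaks met a protein-coding gene. By its center base, a member lay in an intron in 44.5% of cases, in an exon in 2.59%, in another annotated gene in 16.4% and between genes in 36.5%.

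Exons were met more often than by the other xxChIP H1.2 peaks, and less often than the genome would give by length. Exons of protein-coding genes held 2.23% of member bases, 1.37% of the bases of the other peaks and 3.82% of known sequence. The members were above the other peaks on 23 of 23 chromosomes and below the chromosome on 23 of 23. By peak, 10.1% of members (9.73% to 10.4%) met an exon against 8.63% of the other peaks, or 7.65% at matched lengths, where the members were higher on 23 of 23 chromosomes. The xxChIP H1.5-only peaks stood close to the members, with 9.90% at matched lengths. CpG islands, called in unmasked sequence from 200 bp at a GC content of at least 50%, were met by 12.4% of members (12.0% to 12.8%), 14.6% of the other peaks at matched lengths and 12.6% of xxChIP H1.5-only peaks. At matched lengths the share was 9.98% for peaks shared with xxChIP H1.5 alone and 16.6% for those sharing bases with an xChIP list. Islands held 1.65% of member bases, 1.55% of the bases of the other peaks and 2.65% of known sequence. Members cannot overlap xChIP peaks, so the rule bears on the exon and island shares below those of the genome. In xChIP H1.2-only peaks exons held 5.84% of bases and islands 5.06%. How far the rule set the member shares was not tested. With stricter islands the share of members fell to 0.44%. At matched lengths it was 0.53% for the other peaks, 0.30% for those shared with xxChIP H1.5 alone and 0.70% for xxChIP H1.5-only peaks.

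Promoters, defined as 1000 bp on either side of a TSS, were nearly free of these peaks. They were met by 1.04% of members (0.93% to 1.17%) and held 0.36% of member bases against 1.30% of known sequence, lower on 23 of 23 chromosomes. Members cannot overlap xChIP peaks, so the rule bears on this shortfall and on the coverage near a TSS below. Promoters held 2.37% of the bases of xChIP H1.2-only peaks and 0.27% of those of the other xxChIP H1.2 peaks. The part set by the rule was not tested. Of 20098 promoters, 302 met a member (1.5%), and 1288 (6.41%) met another xxChIP H1.2 peak. By peak the members and the other xxChIP H1.2 peaks had 1.04% and 1.1%, a difference of -0.06 percentage points (-0.19 to 0.08). This difference was -0.15 (-0.28 to -0.012) without the length limit. The intervals take peaks as independent and cover counting error only. By bases the direction was the other way, with 0.36% in members against 0.27%, and members were higher on 18 of 23 chromosomes. Members covered 0.54% of the bases within 500 bp of a TSS, against 1.63% at 1 to 5 kb upstream, 1.25% at 1 to 5 kb downstream and 2.33% of the genome. The lowest value, 0.47%, was reached in the 500-bp step centered 750 bp downstream.

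**Figure D3:**
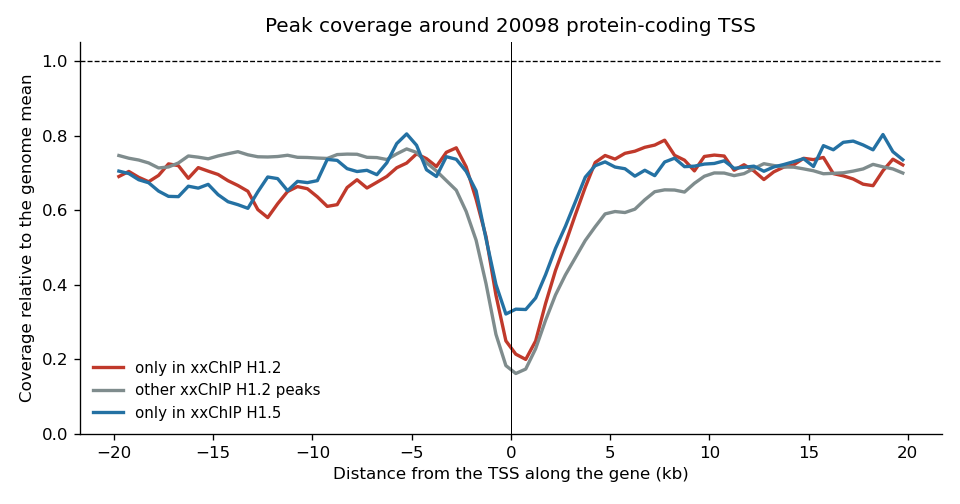
Coverage by peaks in 500-bp steps from 20 kb upstream to 20 kb downstream of 20098 protein-coding TSS, divided by the genome mean of each set (dashed line at 1). The xxChIP H1.2-only peaks (red) fall to 0.20 of their mean at 750 bp downstream, the other xxChIP H1.2 peaks (grey) to 0.16 at 250 bp, and the xxChIP H1.5-only peaks (blue) to 0.32.

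Members were spread over all chromosomes at unequal density. The density per Mb of known sequence ran from 7.57 on chromosome 13 and 7.65 on chromosome 12 to 12.2 on chromosome 16, 12.4 on chromosome 18 and 13.8 on X. The part of the xxChIP H1.2 peaks that was H1.2-only ran from 14.3% on chromosomes 13 and 22 to 30.6% on chromosome 16 and 33.3% on X. Chromosomes with more sequence free of the 3 other lists had more members (Pearson r = 0.95, Spearman rho = 0.94, n = 23 chromosomes). Since a member must lie in free sequence, the rule itself ties these measures. Per Mb of free sequence the range narrowed, from 14.8 on chromosome 13 to 20.4 on chromosome 16. The density also ran with that of the xxChIP H1.5-only peaks (r = 0.89, rho = 0.81, n = 23). Those peaks must also lie outside the xChIP lists, so the rules tie these densities too. The H1.5-only density was the larger of the pair on chromosomes 19, 20 and 22.

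**Figure D4:**
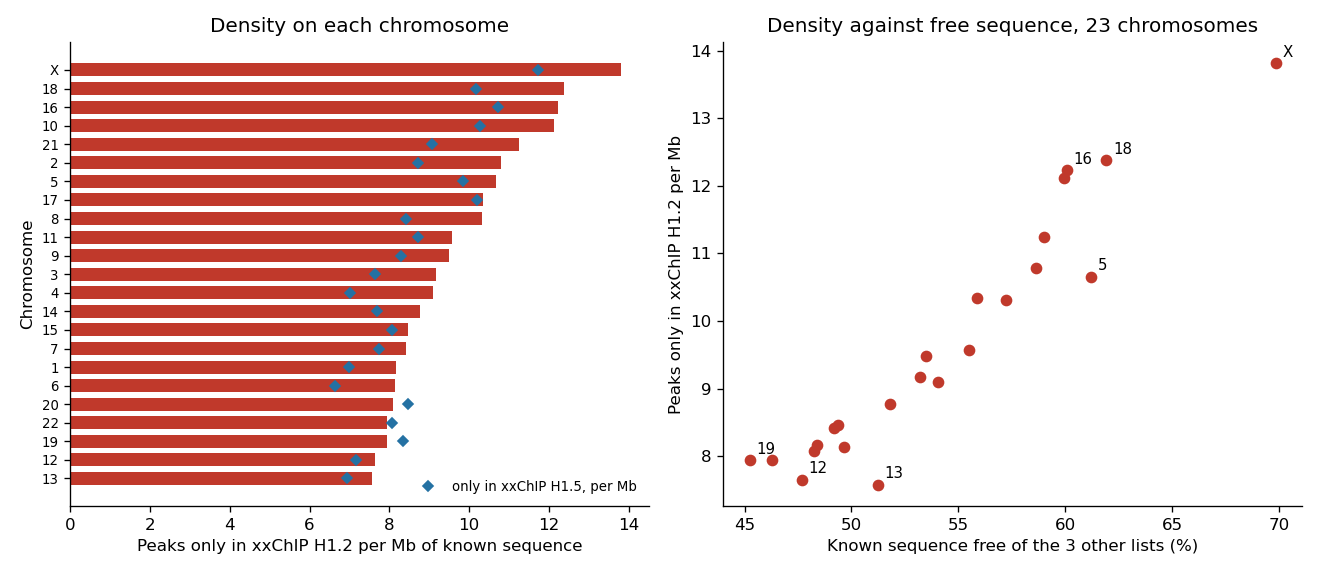
Left, xxChIP H1.2-only peaks per Mb of known sequence on each chromosome (bars) with the xxChIP H1.5-only peaks (diamonds). Right, the same density against the percent of known sequence free of the 3 other lists, 1 point per chromosome (axes do not start at 0), rising from 7.57 per Mb on chromosome 13 to 13.8 on X.

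In 2790 windows of 1 Mb the median was 10 members, with 5th and 95th percentiles of 3 and 18, and 33 windows had none. The fullest window, chrX:5000001-6000000, held 36 members and contains NLGN4X, a neuroligin gene for synaptic adhesion. This window also held 34 other xxChIP H1.2 peaks and 29 xxChIP H1.5-only peaks. The next 4 windows were on chromosome 16. They held 31 members at the CDH11 cadherin gene (65000001-66000000), 30 at ADAMTS18 and VAT1L (77000001-78000000), 27 at GRIN2A, an NMDA receptor gene (9000001-10000000), and 26 at FTO and CHD9 (53000001-54000000). In the same order these 4 held 12, 15, 8 and 13 xxChIP H1.5-only peaks. Of the 33 empty windows, 5 were taken, the first with chromosome names sorted as text, on chromosomes 1, 11 and 12. They held 22 to 41 TSS each, against 0 to 6 in the 5 fullest. The coverage by xChIP H1.2 peaks was 75.7% to 87.8% in these empty windows and 5.58% to 24.9% in the fullest. The rule itself sets this contrast, since members cannot overlap these peaks, and the TSS contrast was not separated from it. With windows ranked by GC content in 5 equal classes, members numbered 10.3 per Mb in the lowest class, 11.2 in the next and 6.54 in the highest. In the same classes the xxChIP H1.5-only peaks numbered 8.58, 9.30 and 6.44 per Mb. Coverage by the other lists was not held equal between classes.

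Members also followed one another along the chromosome. After a member, the next xxChIP H1.2 peak was a member in 24.5% of cases, and after another peak in 17.97%. Over all xxChIP H1.2 peaks under the limit, 19.6% were members. Since a member must lie outside the 3 other lists, the rule itself ties members to the same stretches. Runs were not set against a random order. Runs of at least 2 members with no other xxChIP H1.2 peak between them held 11680 members (42.5%), and 95 runs had at least 5. The longest had 9, at chr16:61856123-61985503 in CDH8, a cadherin gene, and at chr3:63338255-63472178 in SYNPR, which encodes a synaptic vesicle protein. Runs of 8 lay on X, the longer of them from 40221578 to 40599522 over ATP6AP2, CXorf38 and MED14.

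At the level of genes, 5555 of 20098 protein-coding genes met a member (27.6%), and 11221 (55.8%) met another xxChIP H1.2 peak. This share differed with gene length, as 2.43% of genes under 10 kb, 51.2% of genes of 50 to 200 kb and 99.1% of genes of at least 500 kb met a member. Of the 20098 genes, 831 met a member and no other xxChIP H1.2 peak under the limit. Another 4724 met both, 6497 met other xxChIP H1.2 peaks only and 8046 met neither. The members covered 0.78% of gene bodies under 10 kb and 3.08% of those of at least 500 kb. The other xxChIP H1.2 peaks covered 3.67% and 15.8%, so that members made up a similar part of the covered sequence in each, 17.5% and 16.3%.

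The genes with the most members were very long genes. CSMD1, which encodes a complement-regulating membrane protein, had 40 members beside 69 other xxChIP H1.2 peaks. DMD, the dystrophin gene, had 39 beside 57, and ROBO2, an axon guidance receptor gene, had 36 beside 86. LRP1B, of the low-density lipoprotein receptor family, had 33, and RBFOX1, a splicing regulator gene, had 32. FHIT, at a common fragile site, and NRXN3, a presynaptic neurexin gene, had 31 each. IL1RAPL1, a synaptic receptor gene, had 30 beside 33 others, PTPRD, a receptor phosphatase gene, had 29 beside 93, and CNTNAP2, a neurexin relative, had 26 beside 112. RBFOX1 was the gene of these 10 with the most xxChIP H1.5-only peaks, 65, more than its members. NRXN3 and CNTNAP2 also had more H1.5-only peaks than members, 34 and 30, and the other genes had fewer, from 15 in LRP1B to 37 in DMD.

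Per 100 kb, among 3660 genes of at least 100 kb with a median of 0.92, other genes led. CUL1, the scaffold of SCF ubiquitin ligases, had 6 members in 103.2 kb, or 5.81 per 100 kb, with 14.6% of its body covered by members and 3.69% by other xxChIP H1.2 peaks. USP9X, a deubiquitinase gene on X, had 8 members and 1 other peak, and REPS2, an endocytosis gene, had 9 members and 5 others. BBS2, of the ciliary BBSome, had 6 members beside 3 others. P3H2, a collagen prolyl hydroxylase gene, had 8 beside 9. CACNG3, an AMPA receptor auxiliary subunit gene, had 5 members and 1 other peak. CAPZA2, for an actin capping subunit, PICALM, for a clathrin assembly protein, and B3GALT5, for a galactosyltransferase, had 5 members each beside 6, 4 and 4 others. Of these long genes 788 (21.5%) met no member.

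Genes lying wholly inside a member numbered 8 of 20098. The number inside peaks of the other sets is not given here. POU4F2, a transcription factor gene of retinal ganglion cells, with 3582 bp at chr4:147560045-147563626, lay inside a 5610-bp peak. MAB21L2, an eye development gene of 2543 bp, lay inside a 7133-bp peak, and KIF2B, a mitotic kinesin gene of 2267 bp, inside a 3452-bp peak. The others were PRR32 and FTHL17 on X, DEFA6, a Paneth cell defensin gene on chromosome 8, KRTAP22-1, a hair keratin-associated protein gene, and AC011308.1, of 59 bp.

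Gene lists are read against the 27.6% of all protein-coding genes and against gene length. Of 25 myeloid transcription factor genes 8 met a member (32%), among them RUNX1, ERG, FLI1, ETV6, LMO2, MEIS1 and MYB, with 34 overlaps in all, and members covered 2.42% of the list's bodies against 2.31% over all genes. None of its 25 promoters met a member, where 1.5% of all promoters did, too few genes to read a difference from. Of 13 azurophil granule protein genes only CTSC, the cathepsin C gene, met 1, and of 18 lamin and nuclear envelope genes SYNE1, SYNE2, SUN2 and LEMD3 did, of which SYNE1 and SYNE2 encode the giant spectrin-repeat nesprins. None of the 10 linker histone H1 genes and none of 17 interferon and type 1 cytokine genes met a member, and these genes are short, with median lengths of 0.79 and 0.99 kb.

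The neuronal gene lists had the highest shares of the lists, but their genes are long, with median lengths of 366 and 316 kb, and 92.7% of all genes of 200 to 500 kb met a member. Of 44 neuronal adhesion genes 29 met a member (65.9%), with 377 overlaps and 3.54% of their 27.3 Mb covered by members, against 3.08% in all genes of at least 500 kb. The other sets were higher in this list too. In the same comparison xxChIP H1.5-only peaks covered 3.01% against 2.53%, and the other xxChIP H1.2 peaks 16.2% against 15.8%. The 18 ionotropic glutamate receptor genes included 10 with a member (55.6%), among them GRIN2A and GRIA3. Members covered 2.72% of this list and xxChIP H1.5-only peaks 2.79%. At 2 of the 44 adhesion gene promoters (4.55%) there was a member, against 4 with another xxChIP H1.2 peak (9.09%). Over all promoters the shares were 1.5% and 6.41%, and these counts are too small to read a difference from. A member of 3034 bp covered the TSS of CNTN5 at chr11:98891568-98894601, and one of 2994 bp ended short of the TSS of LRRTM3 at chr10:68682486-68685479.

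Several gene families had shares below the 27.6% of all genes, and above or near the 2.43% of genes under 10 kb where their genes are short. Members met 21 of 415 olfactory receptor genes (5.06%), 10 of 149 keratin and keratin-associated protein genes (6.71%), 4 of 39 HOX genes (HOXA3, HOXA6, HOXC6 and HOXC9) and 2 of 85 cytosolic ribosomal protein genes (RPL39L and RPL5). At 9 olfactory receptor promoters (2.17%) there was a member, against 78 with another xxChIP H1.2 peak (18.8%), beside 1.5% and 6.41% of all promoters. Members covered the TSS of OR2T35, OR6F1 and OR8A1 and came within 1000 bp of those of OR10W1 and OR52A5. Of 515 zinc finger genes named ZNF, 134 met a member (26.0%), and 14 (2.72%) had 1 at the promoter, among them ZNF682, ZNF83, ZNF385D, ZNF202 and ZNF154. At 56 ZNF promoters (10.9%) there was another xxChIP H1.2 peak. Keratin family promoters with a member numbered 6 of 149 (4.03%), KRTAP4-12, KRT39, KRTAP5-2, KRT3 and KRTAP19-4 having the longest peaks. Another xxChIP H1.2 peak lay at 25 of them (16.8%), beside the same 1.5% and 6.41% of all promoters.

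The clustered protocadherin genes, which give neurons their cell-surface identity, held 1 of the longer peaks. A 13423-bp member at chr5:140184979-140198401 covered the TSS of PCDHA4 and 3 other promoters with members were those of PCDHGB1, PCDHGA7 and PCDHAC1, making 4 of 53 (7.55%), against 1 with another xxChIP H1.2 peak (1.89%), beside 1.5% and 6.41% of all promoters. Of the 53 genes 22 met a member (41.5%), but alternative first exons of this locus splice to shared exons, so that 1 peak counts for several genes. Their median length is 110 kb, and 51.2% of all genes of 50 to 200 kb met a member. Members covered 2.71% of the bodies of this list and xxChIP H1.5-only peaks 3.08%.

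**Figure D5:**
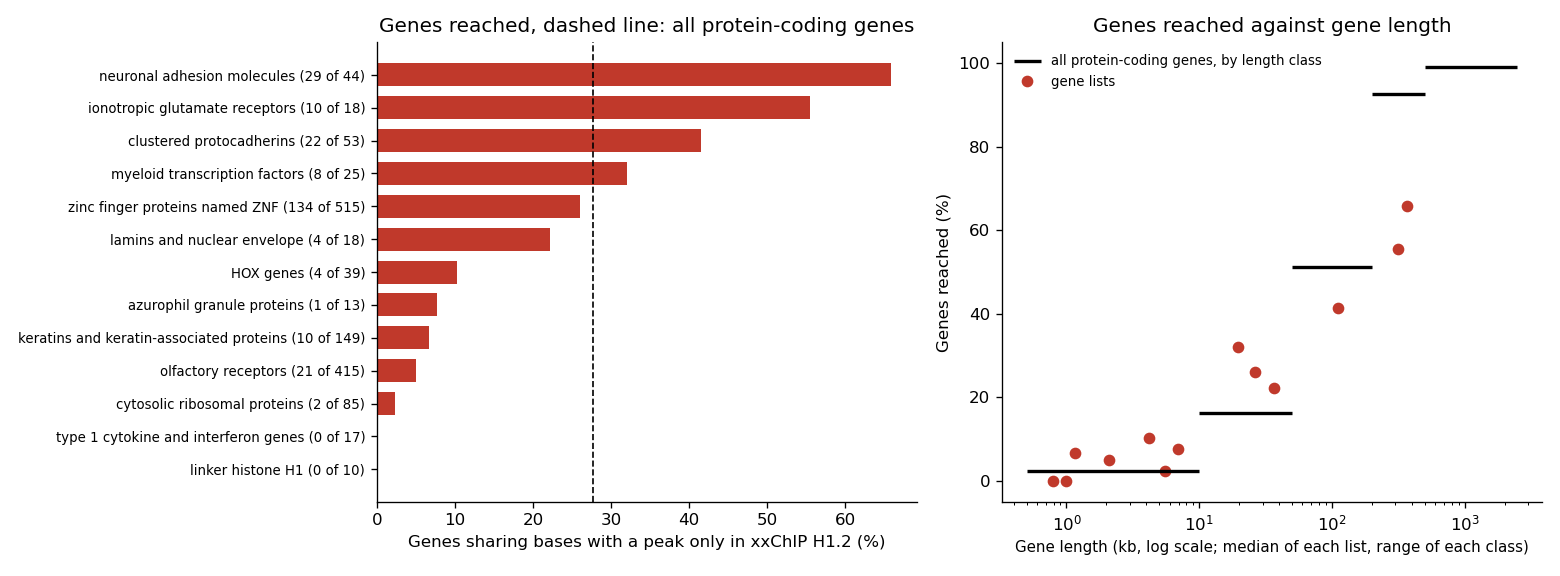
Left, percent of the genes of each list that share bases with an xxChIP H1.2-only peak, with counts in the labels and the 27.6% of all protein-coding genes as a dashed line. Right, the same percent against the median gene length of each list (red points; log axis), with the percent of all protein-coding genes in each length class as black lines from 2.43% under 10 kb to 99.1% from 500 kb.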

How the data were processed

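H1.2 and H1.5 were mapped by xChIP-seq and xxChIP-seq in HL-60/S4 cells. The authors aligned reads to hg19, kept uniquely mappable ones, called peaks with MUSIC and merged 3 replicates. They deposited 1 list per combination of protocol and antibody, with start and end positions only, so the depth is unknown. Positions below are 1-based, on GRCh37. The members and lists were chosen with earlier results of these data known. Lists were intersected from 1 shared bp, and GENCODE v44, lifted to GRCh37, gave the genes. High-copy bases lie in 16-base words found at least 100 times. Other peaks were weighted to the member lengths in bins of 250 bp. This comparison was chosen after seeing the data, except for GC content over all chromosomes together. The profile of peak ends and the per-chromosome directions with weights, those of GC content included, were also chosen after seeing the data. CpG islands were stretches from 200 bp with GC from 50% and observed/expected CpG from 0.6, and stricter ones from 500 bp, 55% and 0.65. Gene lists were written by hand or by gene name. Named were the 5 longest peaks, the 3 most remote, the 3 with the highest and the 3 with the lowest GC content. Also named were the 5 fullest windows, 5 of the 33 without a member and the 10 leading genes by count and by density. Genes inside 1 member and up to 5 promoter members per list were named too. Alternatives changed the overlap rule, the length limits, and the definitions of GC content, gene, promoter, exon, island, high-copy base and density. Some regions and genes that met these criteria are not reported here. Interval counting was checked on simulated peaks. Python 3.11.15, numpy 2.4.6, pandas 2.3.3 and matplotlib 3.10.9 were used.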

Additional observations from a re-analysis of the deposited data

How the results depend on the processing

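No paired analysis was possible because the 3 replicates of each group were merged into 1 list, and for the same reason no replicate could be left out. Of 46 alternatives to 9 results, 29 kept the value within counting error or, for the number of members, within 1.5 times. The number of members was 27491 and ranged from 23670, with no peak of another list within 1000 bp, to 30012, with up to 10% of the length covered by other lists. That last rule gave a median length of 1948 bp. The GC difference from the other xxChIP H1.2 peaks, 0.74 percentage points, was 0.65 with the 1000-bp gap, 0.66 with 10% covered and 1.104 without a length limit, and it turned negative in the central 300 bp (-0.17) and with other peaks weighted to the member lengths (-0.26). High-copy sequence in members, 31.1%, was 31.0% with the gap, 30.5% with 10% covered, 31.1% without a length limit and 55.3% for words found at least 20 times. Other definitions changed the quantity itself. All annotated genes gave 65.0% of members in a gene, promoters of 500 and 2500 bp gave 0.62% and 2.53%, center bases gave 0.29% in promoters and 2.59% in exons, and strict islands gave 0.44%. The range of density over chromosomes, 6.24 members per Mb, was 1.798 percentage points as bases covered. Of 35 alternatives added after seeing the data to 7 differences from the other peaks, 34 kept the direction. The promoter difference, -0.06 percentage points, became 0.054 with matched lengths, both within counting error, and was -0.15 (-0.28 to -0.012) without the length limit. Merged lists hold no depth or score, so support per replicate was not analysed here, and whether a region missing from another list lay just below its calling threshold was not tested.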
